A study of Andrias davidianus with 4 samples.

Results

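Described here are the 200 longest read unigenes of skin from Andrias davidianus, the Chinese giant salamander. A unigene is a transcript sequence put together from the reads, without a genome. The members were the 200 unigenes with the greatest listed length among the 32494 with at least 50 unique counts summed over 4 libraries, out of 110708 unigenes in all. A unique count is a read counted on 1 unigene only, as the deposited tables' header names it. Members were thus chosen by length and by counts summed over all libraries, and the difference between the groups was not used, so that difference could be tested. A unigene could still reach the minimum through the counts of a single group, as the members of 13115 and 11295 bases did.

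The 4 libraries came from skin, 2 labelled wild type and 2 labelled albino type. The labels give no age, sex, locus or allele for the albino animals, no batch, and no statement that the 2 libraries of a group came from separate animals. If they did not, the p-values below measure technical spread only. In both groups, total RNA was depleted of ribosomal RNA and made into libraries that keep the strand. A difference in preparation that ran along the groups cannot be told apart from genotype. Depth ran from 16854176 to 17547197 unique counts per library. The labelled tissue could not be checked against marker genes, because the tables pair no unigene with a gene name.

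As background, the length of a messenger RNA is set by its coding sequence and its untranslated ends. Among the longest known in vertebrates are those of giant proteins, such as titin and nebulin of muscle, the plakins that tie the cytoskeleton to cell junctions in epithelia, large extracellular matrix proteins and gel-forming mucins. RNA depleted of ribosomal RNA, rather than selected for its tail, also retains long noncoding RNA and unspliced precursors. An assembler can further join neighbouring transcripts or break one into pieces, so a unigene's length need not be that of the molecule. Which of these a given member was is not shown by the files, and no sequence was read. Of the members whose counts changed, 4 are therefore named by identifier and the others are called by their length in bases.

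The members ran from 8458 to 34658 bases, with a median of 9679, against a median of 534 over all unigenes. The longest stood apart, since the next was 17720 bases long. Of the 200, 82 had at least 10000 bases, 33 at least 12000 and 12 at least 15000. The members just inside the limit had 8470, 8466 and 8458 bases with 1429, 2852 and 1336 summed counts, and the read unigenes just outside had 8457, 8450 and 8448 bases with 1165, 1711 and 2315. The limit on counts left out 3 unigenes of at least 8458 bases. All members lay far above the minimum of 50, from 529 to 88389 summed unique counts with a median of 3154, and all 200 passed edgeR's filter on low counts.

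The members were 0.181% of the unigenes and 2.02% of the assembled bases. They held 2.05% and 2.24% of the unique counts in wild type against 1.79% and 1.96% in albino. Both albino shares lay below both wild type shares, at 1.87% ± 0.118 (SD, n = 2) against 2.14% ± 0.136 (SD, n = 2). With 2 libraries against 2, the exact two-sided permutation test gave p = 0.333, the smallest value this design allows. The member of 9025 bases, described below, held 5.70% and 5.94% of the members' counts in wild type. Without it the shares were 1.93% and 2.11% in wild type against 1.79% and 1.96% in albino, and the groups overlapped.

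Per length, the median member stood above the median tested unigene in each library. FPKM, the authors' length-scaled fragment value, had a median over the members of 3.75 (wild type 1), 4.24 (wild type 2), 3.52 (albino 1) and 4.25 (albino 2). Over all 37893 tested unigenes the medians were 2.45, 2.58, 2.43 and 2.93. The 25th percentile of the members ran from 2.24 to 2.76 over the libraries and the 75th from 7.05 to 7.93, with no separation of the groups. The highest FPKM of any member was 148, reached in albino 2 by the member of 9367 bases. The 10 members with the most counts held 42.5% and 44.5% of the members' unique counts in wild type against 32.5% and 33.0% in albino. The 9025-base member alone held 5.70% and 5.94% of the members' counts in wild type and was all but unread in albino. Its part in this difference was not set apart.

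**Figure D1:**
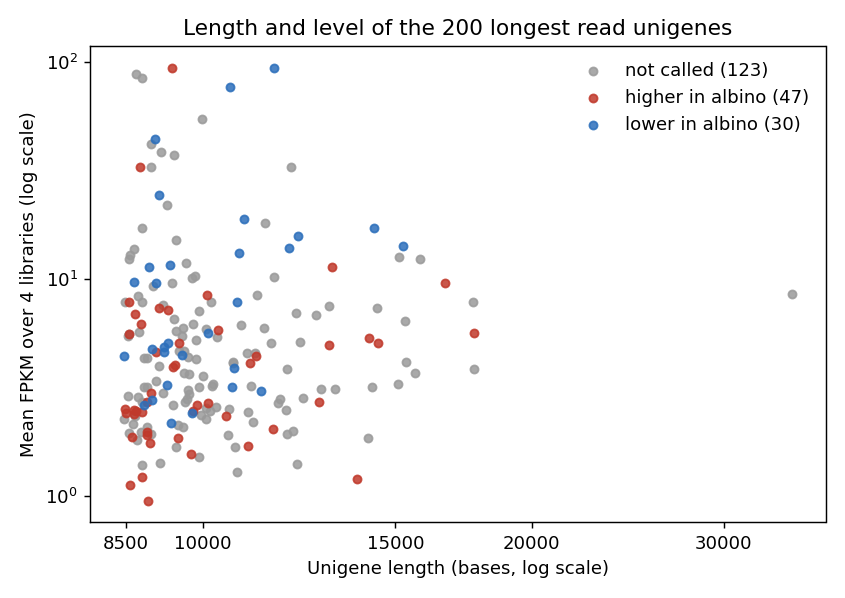
Length in bases (log axis) against the mean FPKM over the 4 libraries (log axis) for the 200 members, each a point coloured by its call in edgeR's test. The longest member, at 34658 bases, lies alone on the right, and 47 members were higher, 30 lower and 123 not called.

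Between albino and wild type skin, the very long unigenes differed in both directions and mostly by small amounts. At an adjusted p under 0.05 in edgeR's quasi-likelihood test, 47 of the 200 were higher in albino (23.5%) and 30 were lower (15%), while 123 did not pass. Over all 37893 tested unigenes, 33.1% were called, 16.3% higher and 16.8% lower. The members carry more reads than most unigenes, and among the 10714 unigenes with at least the 529 counts of the least counted member, 39.9% were called, 21.5% higher and 18.4% lower. The members' 38.5% lay between these backgrounds. By direction, their 23.5% higher lay above both and their 15% lower below both, each within a few percentage points of the share at like counts. The next 200 read unigenes by length leaned the same way, with 38 higher and 27 lower, so the lean was not particular to the members. It was not tested and did not hold in all fits described below. As the samples are whole tissue, fewer cells of a type and less RNA per cell cannot be told apart.

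The changes themselves were modest. The median log2 change was 0.08 over the 200 members (albino minus wild type, 25th to 75th percentile from -0.28 to 0.45), and 0.00 over all tested unigenes (from -0.61 to 0.55). A value above 0 was found for 116 members and below 0 for 84. Among called members the median change was 0.71 for those that rose and -0.94 for those that fell, against 1.38 and -1.50 among all called unigenes. At 2-fold or more, 11 members rose and 10 fell, 5.5% and 5% of them, where all tested unigenes gave 10.9% and 12.3%. The median standard error was 0.14 on the log2 scale among members and 0.31 over all tested unigenes (n = 2 per group). All 4 libraries lay within 1.5-fold of one another for 101 members, or 50.5%, against 25.2% of tested unigenes. These traits were not particular to the members. In the next 200 read unigenes by length, the share within 1.5-fold was 56% and the median standard error 0.14. Their called median changes were 0.76 and -0.79. The median member also had 3154 summed counts, against 169 for the median tested unigene, and no comparison of sizes at like counts was made.

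Counts scaled to the library (CPM, unique counts per 1e6) did not overlap between the groups for most members, and the same held for most tested unigenes. They were higher in both albino libraries for 84 members (42.0%, against 34.7% of tested unigenes) and lower in both for 60 (30.0%, against 35.7%). In the authors' FPKM, all 77 called members had groups that did not overlap, in the direction of the counts, as did 97.0% of all called unigenes. FPKM comes from the same libraries as the counts, so this is not independent support for the calls.

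The number of members called depended on the libraries in the fit. Without wild type replicate 1, 6 members were higher and 16 lower (3.97% and 4.50% of tested unigenes). Without wild type replicate 2, 9 were higher and 13 lower (4.22% and 4.90%). Without albino replicate 2, 71 were higher and 41 lower (17.4% and 18.7%), and without albino replicate 1, 53 and 46 (18.7% and 19.2%). Limma on log2(FPKM + 1), chosen as an alternative, called 8 higher and 16 lower (14.3% and 11% of the unigenes it tested), and 7 and 16 with a pseudocount of 0.1 (12% and 8.6%). DESeq2's Wald test called 32 higher and 25 lower (5.99% and 6.21% of the 53196 unigenes it tested). Each share in this paragraph is of the unigenes its own fit tested, always more than the 37893 of the main fit. No share at like counts was made for these fits. The excess of rises over falls among the members turned into an excess of falls with either wild type library left out and on FPKM. The 13 alternative fits use the same libraries as the main fit, so they are not independent support for its calls. No called member changed its sign under these 13 fits. Called under all of them were 4 of the 47 that rose and 11 of the 30 that fell.

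**Figure D2:**
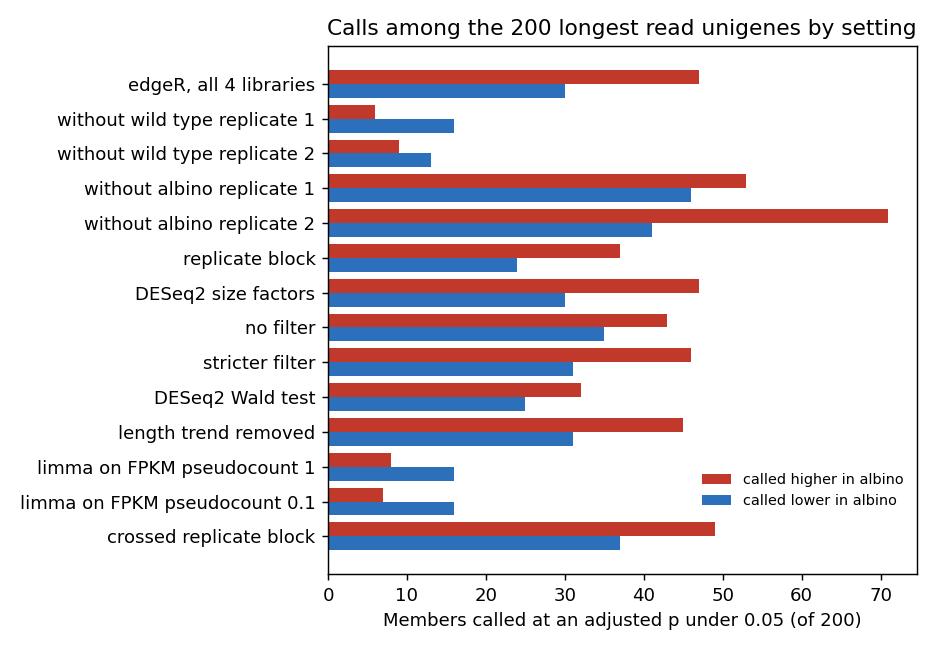
Number of the 200 members called higher (red) or lower (blue) in albino at an adjusted p under 0.05, with all 4 libraries by edgeR and under each of 13 alternatives. With all libraries 47 were higher and 30 lower, and without wild type replicate 1 the numbers were 6 and 16.

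The largest rise was that of a unigene all but unread in wild type skin. The member of 13115 bases had 23 and 5 unique counts in wild type against 5368 and 6506 in albino. Both albino libraries lay far above both wild type libraries. Through its albino counts alone, this member reached the minimum of summed counts, albino being the group in which it was high. Its p-value and its calls under the alternative fits carry that limit. Its level was 337 ± 8.06 CPM in albino and 0.858 ± 0.800 CPM in wild type (SD, n = 2), 8.62 higher on the log2 scale (SE 0.51, edgeR adjusted p = 0.000318), or 395-fold. That log2 change was 10.11 without wild type replicate 1 and 7.84 without replicate 2. Its FPKM rose from 0.0929 and 0.0201 to 20.5 and 24.7.

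UniGene_156622, of 8746 bases, was well read in both groups and had 673 and 735 counts in wild type against 11221 and 7768 in albino. The groups were wide apart, and albino 1 was the highest library. The log2 change was 3.70 (SE 0.27, edgeR adjusted p = 0.00057), or 13.0-fold, from 42.3 ± 0.914 to 551 ± 200.3 CPM (SD, n = 2). No other member rose more than 2.67-fold.

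UniGene_112429, the second longest member at 17720 bases, had 908 and 958 counts in wild type against 1541 and 3716 in albino. Both albino libraries were higher, and albino 2 was more than 2-fold above albino 1. The log2 change of 1.37 (SE 0.31, edgeR adjusted p = 0.0184) was 0.78 without albino replicate 2. It was not called without wild type replicate 1 (adjusted p = 0.104), without wild type replicate 2 (adjusted p = 0.104) or by limma on log2(FPKM + 1) (adjusted p = 0.136).

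The remaining 7 of the 10 largest rises had log2 changes from 1.09 to 1.42. They were the members of 8872, 8499, 11029, 9282, 9103, 8904 and 9367 bases, and in each the groups did not overlap. The one of 11029 bases had 468 and 506 counts in wild type against 1141 and 1364 in albino, and the one of 9103 bases had 592 and 658 against 1395 and 1418. Both, with the 13115-base and 8746-base members, were called under all 13 alternatives. The 9367-base member was among the most highly expressed per length, with an FPKM of 50.7 and 69.9 in wild type against 106 and 148 in albino. Its log2 change of 1.09 (SE 0.20, edgeR adjusted p = 0.00864) was not called without wild type replicate 1 (adjusted p = 0.130) or replicate 2 (adjusted p = 0.0543). With each library left out in turn, 6 of the 10 largest rises stayed called.

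**Figure D3:**
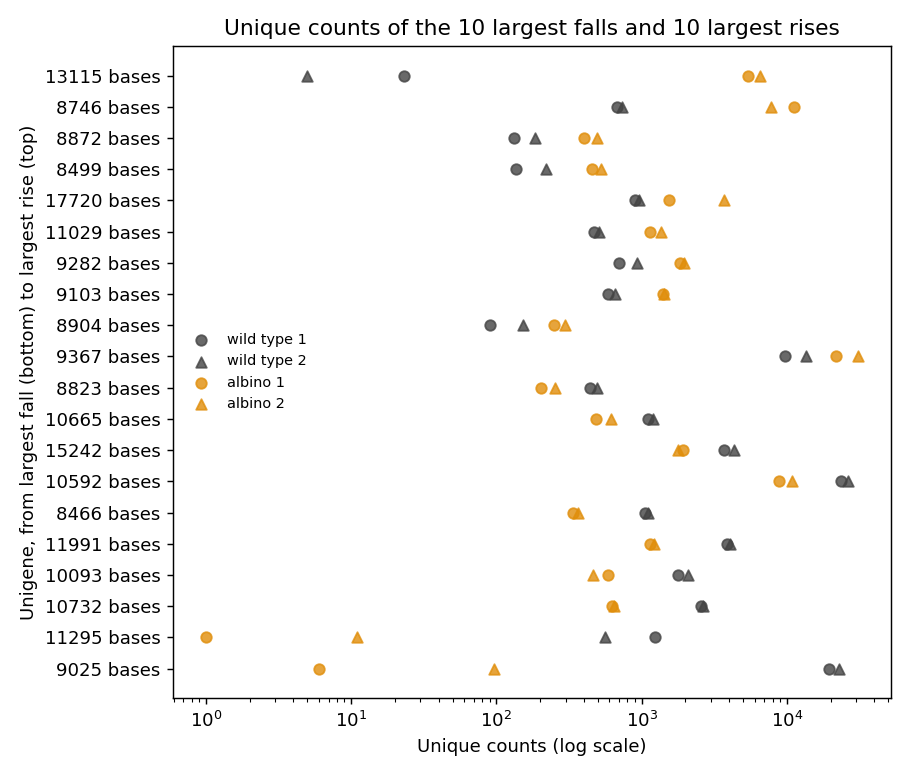
Unique counts (log axis) in each of the 4 libraries for the 10 called members with the largest fall (lower rows) and the 10 with the largest rise (upper rows), labelled by length. Grey symbols are wild type, orange symbols albino, and the groups do not overlap in any of the 20 members.

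The largest fall was that of a unigene all but unread in albino skin. The member of 9025 bases had 19646 and 22953 counts in wild type skin and 6 and 96 in albino skin. Both wild type libraries were far above both albino libraries, and the albino libraries themselves differed. The member's albino counts alone would not have passed edgeR's filter, since 6 lay under the minimum count of 10. It thus entered the test through wild type, the group in which it was high. Its p-value and its calls under the alternative fits carry that limit. Its level fell from 1278 ± 88.5 to 2.71 ± 3.31 CPM (SD, n = 2), a log2 difference of -8.84 (SE 0.95, edgeR adjusted p = 0.00194), or 459-fold. It was -7.99 without albino replicate 1 and -11.70 without albino replicate 2. In wild type it was among the members with the highest level per length, at an FPKM of 80.8 and 94.6, against 0.03 and 0.475 in albino.

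The member of 11295 bases had 1232 and 564 counts in wild type against 1 and 11 in albino. The groups did not overlap, but each pair of libraries differed by more than 2-fold. Wild type counts alone, from the group in which it was high, brought this member to the minimum of summed counts. Its p-value and its calls under the alternative fits carry that limit. Its log2 change was -7.30 (SE 0.68, edgeR adjusted p = 0.00125), or 158-fold. It was -6.55 without albino replicate 1, -9.60 without albino replicate 2 and -6.61 without wild type replicate 1.

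UniGene_121532, of 10732 bases, had 2555 and 2658 counts in wild type against 629 and 646 in albino. The libraries of each group lay close together and the groups far apart. It fell by 2.11 on the log2 scale (SE 0.14, edgeR adjusted p = 0.000388), from 157 ± 2.0 to 36.4 ± 3.39 CPM (SD, n = 2). UniGene_133217, of 10093 bases, went from 1770 and 2079 counts to 585 and 465, a log2 difference of -1.93 (SE 0.20, edgeR adjusted p = 0.00181).

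The remaining 6 of the 10 largest falls had log2 changes from -1.82 to -1.11. They were the members of 11991, 8466, 10592, 15242, 10665 and 8823 bases. The 10592-base member had the most reads of these, with 23539 and 26227 counts in wild type against 8884 and 10780 in albino. Its FPKM of 105 and 117 went to 37.3 and 45.1. All 10 of the largest falls kept their direction under the 13 alternative fits. The 10 were picked from the same libraries that these fits use, so this is not independent support. Among them, the members of 9025 and 11295 bases carry the limit on counts given above.

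**Figure D4:**
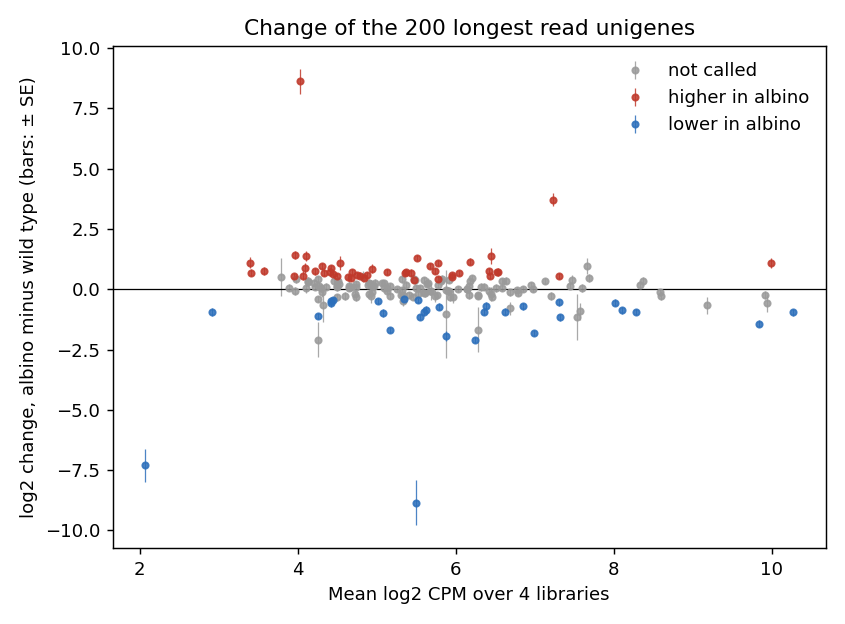
log2 change, albino minus wild type, with bars of ± 1 SE, against the mean log2 CPM over the 4 libraries for the 200 members. Most lie within 1 of the zero line, and the member of 13115 bases at 8.62 and those of 9025 and 11295 bases at -8.84 and -7.30 lie apart.

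The 10 longest members included 2 that rose, 1 that fell and 7 that did not pass. Of all tested unigenes 16.3% were higher and 16.8% lower, and of those with at least 529 counts 21.5% and 18.4%. No trait of the longest is read from so few members. The longest of all, at 34658 bases, had 8659 and 4248 counts in wild type against 440 and 6247 in albino. The groups overlapped, and albino 1 alone was low. Its log2 change of -1.14 had a standard error of 0.96 (edgeR adjusted p = 0.397). The member of 16665 bases, with 2056 and 2302 counts in wild type against 3160 and 3520 in albino, rose by 0.54 on the log2 scale (SE 0.13, edgeR adjusted p = 0.0199). This call was lost without either wild type library (adjusted p = 0.237 without replicate 1 and 0.194 without replicate 2) and on FPKM (adjusted p = 0.105). The member of 15242 bases fell from 3668 and 4354 counts to 1941 and 1786, a log2 difference of -1.17 (SE 0.16, edgeR adjusted p = 0.00413).

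Among the 10 longest that did not pass, the member of 17675 bases had 2539 and 2987 counts in wild type against 3109 and 3287 in albino, with a log2 difference of 0.14 (SE 0.14). The member of 17699 bases had 984 and 1109 against 1541 and 1471, with a log2 difference of 0.46 (SE 0.15, edgeR adjusted p = 0.0518), just outside the threshold. That of 15808 bases had 4266 and 4894 against 3311 and 1635, with albino 2 below albino 1 and a log2 difference of -0.92 (SE 0.36, edgeR adjusted p = 0.0944). The other 3, of 15623, 15339 and 15308 bases, had log2 differences from -0.09 to 0.35.

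The 10 members with the highest mean FPKM, which compares levels per length, ranged from 37.0 to 93.9. Of these, 1 rose, 3 fell and 6 did not pass. Tested unigenes with at least 529 counts and a mean FPKM of at least 7.79 were higher in 22.8% and lower in 21.5%. No trait is read from so few members. The highest, at 11619 bases, had an FPKM of 122 and 127 in wild type against 61.8 and 64.9 in albino. Its unique counts were 27823 and 29573 against 15094 and 15899, a log2 difference of -0.96 (SE 0.15, edgeR adjusted p = 0.0056). That call was lost without wild type replicate 1 (adjusted p = 0.0765) or replicate 2 (adjusted p = 0.073). The member of 8683 bases had an FPKM of 73.9 and 99.9 in wild type against 83.4 and 93.2 in albino, where both albino values lay between the wild type values. In CPM its albino libraries lay below both wild type libraries (log2 difference -0.23, SE 0.17, edgeR adjusted p = 0.337). Those of 8785 and 9967 bases shared a pattern in which albino 2 was far below the others. The first had 18546, 23238 and 18874 counts and then 9605 in albino 2, and the second had 11998, 13394 and 10720 and then 5642.

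Calls were spread unevenly over levels within the members. Among the 50 members with the highest mean FPKM, at least 7.79, 5 rose and 15 fell, with a median log2 change of -0.25. Among the 50 with the lowest, up to 2.51, 20 rose and 2 fell, with a median of 0.35. Of the middle classes of 50, the one with the higher FPKM gave 14 rises and 7 falls and the other 8 and 6. Tested unigenes of any length with at least 529 counts and an FPKM of at least 7.79 were higher in 22.8% and lower in 21.5%, of 5948. Those with a mean FPKM of up to 2.51 were higher in 22.5% and lower in 10.2%, of 707. In the range of the middle classes, such unigenes were higher in 20% and lower in 15.8% of 2471, then in 18.5% and 14.5% of 1534. The comparison between the classes was made after the values were seen and is a description. By length, the 50 longest members gave 10 rises and 6 falls, the next 50 gave 9 and 8, the next 9 and 12, and the shortest 50, of 8458 to 8935 bases, 19 and 4. Of all tested unigenes, 16.3% were higher and 16.8% lower, and of those with at least 529 counts 21.5% and 18.4%. The shortest 50 also had the lowest median of the mean FPKM, 2.87, so length and level were not separated. The split by length is likewise a description.

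The next 200 read unigenes in order of length gave 38 rises and 27 falls, with a median log2 change of 0.04. No change of at least 4-fold was called among them, where the 200 members held 2 such rises and 3 such falls (1% and 1.5%). Among those members past 4-fold, the ones of 13115, 11295 and 9025 bases carry the limit on counts given above. Of all tested unigenes, 4.85% rose and 5.32% fell by that much. The next 200 held 2.87% of the unique counts in each wild type library and 2.21% and 2.28% in the albino libraries.

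Replicates of a group lay close for most members and far apart for a few. The log2 CPM difference had a median size of 0.14 for wild type and 0.16 for albino, against 0.22 and 0.28 over all tested unigenes. This closeness was not particular to the members, since the next 200 read unigenes by length had 0.11 and 0.16. The members also carry more reads than most tested unigenes. A difference of more than 2-fold was found for 5 members in wild type (2.5%, against 4.67% of tested unigenes) and for 16 in albino (8%, against 9.10%). Of the 16, albino 2 was higher in 9 and albino 1 in 7. With library totals in place of TMM scaling, which moves the median albino difference of all tested unigenes by 0.20, 12 members differed by that much, 10 of them higher in albino 2. Over members, the SD of the difference was 0.31 for wild type against 1.06 for albino, where all tested unigenes had 0.46 and 0.65. Over the 196 members with at least 50 counts in every library it was 0.26 and 0.58, against 0.24 and 0.41 over the 14342 tested unigenes with as many. With 1 pair of libraries per group, the difference in spread was not tested.

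The widest gap belonged to the member of 9397 bases. It had 7409 and 8209 counts in wild type, 0 in albino 1 and 8785 in albino 2. Albino 2 thus lay with the wild type libraries, and albino 1 stood alone. A count of 0 in albino 1 allows up to 3 counts, or 0.185 CPM, so albino 2 was at least 2499-fold higher than albino 1. This limit covers counting error only. The authors' FPKM was 46.3, 49.8 and 51.8 in the libraries with counts and 0 in albino 1. The log2 difference between the groups, -1.02, had a standard error of 1.84 (edgeR adjusted p = 0.701). No member was at 0 in both libraries of a group.

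A set of 5 members had a common order of libraries, chosen after their values were seen. In these, wild type 1 was at least 1.5-fold above wild type 2 and albino 2 at least 4-fold above albino 1. They were the longest member, at 34658 bases, and those of 11607, 11295, 10152 and 10059 bases. The 11607-base member had 4280 and 2036 counts in wild type against 170 and 2085 in albino. The 10152-base member had 1016 and 580 against 50 and 370, and the 10059-base member 651 and 344 against 98 and 607. In CPM, wild type 1 was 1.86-fold to 2.31-fold above wild type 2, and albino 2 was 5.29-fold to 12.1-fold above albino 1. The 11295-base member was the only one of the 5 that passed edgeR's test between the groups, the others having adjusted p from 0.0653 to 0.492. No marker gene could be read beside this order, since no unigene is named, and what lies behind it was not tested. It was found in 2.5% of the members, in 0.5% of the next 200 and in 1.18% of all tested unigenes. The member of 8698 bases had the opposite order, with 112 and 387 counts in wild type against 584 and 119 in albino.

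**Figure D5:**
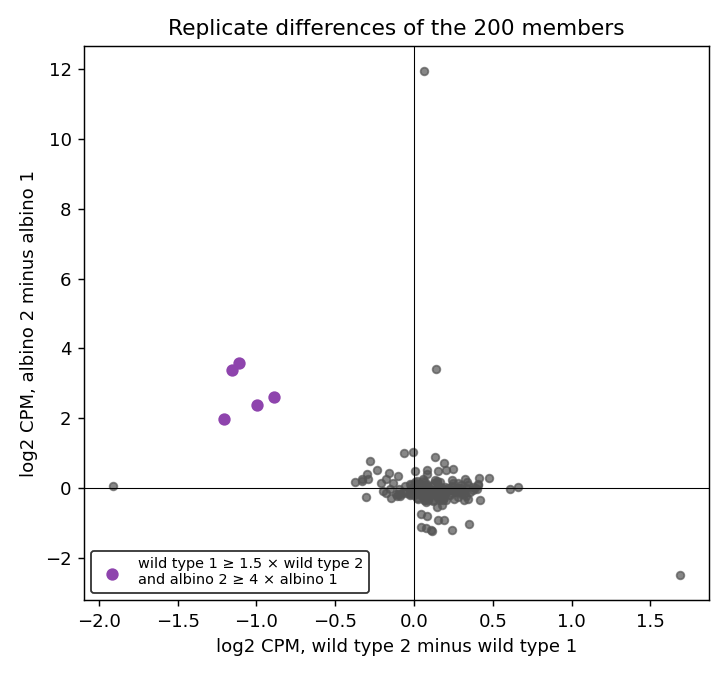
Difference in log2 CPM of the wild type pair (horizontal axis, 2 minus 1) and of the albino pair (vertical axis, 2 minus 1) for the 200 members, with edgeR's prior count of 2 added, which draws in members with few counts. Most lie near the centre, the 5 members with the common order of libraries (purple) lie at the upper left, and the 9397-base member lies at the top.

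FPKM stood far above the unique counts in 1 member. The product of FPKM and the length in kilobases, over the CPM from unique counts and library totals, is near 1 where FPKM follows the unique counts. Its median over the members was 0.949 and 0.948 in wild type against 0.919 and 0.925 in albino. The least counted member, of 14348 bases, had 177 and 163 counts in wild type against 90 and 99 in albino, but an FPKM of 18.7, 18.5, 16.1 and 15.2. Its ratio was 25.5 and 28.1 in wild type against 44.6 and 38.7 in albino. It was called lower on unique counts (log2 change -0.93, SE 0.17, edgeR adjusted p = 0.00883). Unique counts stand for little of its FPKM, so its level and this call are uncertain. The next highest ratios were 1.52 to 2.05, for the member of 10203 bases. Ratios over 2 were found in 4.36% to 4.54% of all unigenes with at least 50 counts in a library.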

How the data were processed

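The members and the comparisons were chosen with earlier results of these data known. Directional libraries were prepared after removal of ribosomal RNA, per the labels' protocols, and the submitters' processing notes name Trimmomatic, a read trimmer. Which programs assembled, aligned and counted is not stated there. The deposited unique counts are whole numbers per unigene, not normalized. The FPKM values were made by the authors, per the file headers, and also cover reads beyond the unique counts. The length behind FPKM is not stated.

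The unique counts of all unigenes entered a quasi-likelihood test in edgeR 4.0.16 (R 4.3.3), with TMM, group as the only factor, the default filter (minimum count 10, minimum total 15, 37893 unigenes with 99.0% of the counts) and Benjamini-Hochberg adjustment over all of them. The threshold was 0.05. Standard errors come from the test's F statistic. Alternatives used DESeq2 1.42.0, limma 3.58.1 and left-out libraries. Depth limits values of few counts, which 4 members had in at least 1 library (under 50).

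Identifiers are printed for the 2 largest rises and 2 largest falls among called members whose groups did not overlap and whose mean log2 CPM was at or above the members' median. That mean is low for members near 0 in one group, which are called by length. Other members described were the 10 longest, the 10 with the highest mean FPKM, the 10 largest rises and falls and those at the length limit, and a few were chosen after their values were seen.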

Additional observations from a re-analysis of the deposited data

Results flagged for a closer look

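A signal outside the unique counts appeared in 3 unigenes as long as the members that fell under the minimum of 50 counts. The unigene of 14251 bases had 0 unique counts in all 4 libraries but an FPKM of 1.92 and 2.65 in wild type against 4.32 and 5.99 in albino. Its lowest albino value was 1.63 times its highest wild type value, and no count test could be run on it. The other 2, both of 9153 bases, had at most 2 unique counts in a library. One had an FPKM of 12.0 and 14.6 in wild type against 11.6 and 12.3 in albino, and the other 4.44 and 3.91 against 3.93 and 3.06.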

How the results depend on the processing

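With 1 library left out, 6 to 71 members were higher, 13 to 46 lower, 3690 to 16604 of all unigenes were called, and the members' median log2 change ran from -0.0013 to 0.14. A group's lone library was then taken to vary as the other group does. Limma on FPKM called 8 higher and 16 lower at a pseudocount of 1, and 7 and 16 at 0.1. An adjusted p under 0.01 left 16 higher, 19 lower and 5177 in all, and a log2 change of at least 1 left 11 and 10. All unigenes called numbered 7492 with the stricter filter and 6495 by DESeq2, which called 32 members higher and 25 lower. The share of counts differed by -0.27 percentage points between the groups and by -0.36 to -0.17 with 1 library left out. It differed by -0.89 for the 400 longest and by -0.040 for FPKM, but these sizes rest on unlike bases. The members held only 0.221% and 0.246% of FPKM in wild type against 0.186% and 0.200% in albino. The 400 longest held more of the counts than the 200. The albino replicate SD was 0.58 with 50 counts in every library and 0.57 on log2(FPKM + 1). With the replicate block, 37 members were higher and 24 lower (9022 of all unigenes), and it moved no count of calls by over 1.5 times. The deviations of same-numbered libraries had a correlation of -0.13 over tested unigenes and -0.34 over members, and crossed pairing, chosen after seeing the data, called 49 and 37 (13420 of all). Signs turned in 9 of 520 repeats, all for 3 uncalled unigenes. They were the 8683-base member (0.037 on FPKM at either pseudocount), the 8458-base member (-0.0077 without the length trend, -0.075 to 0.073 with a library left out) and the unigene of 8448 bases (-0.0071 without the length trend, -0.0022 on FPKM at both pseudocounts, -0.088 to 0.094 with a library left out). The cause was not tested. Read minima of 10 and 200 gave the same members' counts. They could not change the set, since the least counted member had 529 summed counts and the 3 long unigenes left out had at most 2 in a library. The 100 longest gave 19 higher and 14 lower, where 16.3% of all tested unigenes were higher and 16.8% lower. Of those with at least 529 counts, 21.5% were higher and 18.4% lower.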
